A study of Mus musculus with 2 samples.

Results

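The 9 genes described here encode transcription factors of the macrophage lineage: Spi1, Cebpa, Cebpb, Cebpd, Maf, Runx1, Zeb2, Bhlhe40 and Bhlhe41. They were taken by gene symbol, and each symbol matched 1 of the 55536 annotated genes measured. The RNA came from bone-marrow-derived macrophages, which are grown from marrow precursors, of C57BL/6J mice. All cells had received 100 ng/ml lipid A, the active part of bacterial endotoxin and a ligand of the receptor TLR4, for 90 min. RNA of the nucleoplasmic fraction, which the labels also call the nuclear fraction, was depleted of ribosomal RNA and sequenced as total RNA. The labels give 1 group of 2 libraries, biological replicates 1 and 2, made from 1 µg and 500 ng of RNA. Both carry the same donor entry, so the difference between them may be partly technical. Age and sex were not recorded in the labels. Without an unstimulated or cytoplasmic library, the values below are levels at this time point in this fraction, and no effect of lipid A was measured.

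These factors set macrophage identity in layers. PU.1, the ETS-family product of Spi1, opens regulatory DNA in myeloid cells and acts there together with C/EBP basic leucine zipper factors and with RUNX1. C/EBPα acts mainly in granulocyte and monocyte precursors, while C/EBPβ and C/EBPδ are known for roles in inflammatory activation. MAF, ZEB2 and the basic helix-loop-helix repressors BHLHE40 and BHLHE41 shape the mature cell, among other things its cytokine output, its tissue identity and its capacity to divide.

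Sequences around the start sites of Runx1 and Zeb2 are shown first. The RNA of these 2 genes was assigned to transcripts with alternative starts, and most of it to transcripts that lack the end of the coding sequence. RefSeq promoter windows (GRCm38.p6, the assembly named mm10), running from 250 bases before to 50 after an annotated start, were found for 5 of the 9 genes, 9 windows in all. Capitals mark matches, on either strand, to letters known to be bound by these factors: TTGCNNAA for C/EBP, TGTGGT for RUNX, GAGGAA for PU.1, TGCTGAC for MAF, and the E-boxes CACGTG for BHLHE40 and CAGGTG for ZEB. No matches overlapped in any window. All 4 windows printed lie on the minus strand and read 5′ to 3′ toward the gene.
Runx1 distal start, chr16:92826025-92826324: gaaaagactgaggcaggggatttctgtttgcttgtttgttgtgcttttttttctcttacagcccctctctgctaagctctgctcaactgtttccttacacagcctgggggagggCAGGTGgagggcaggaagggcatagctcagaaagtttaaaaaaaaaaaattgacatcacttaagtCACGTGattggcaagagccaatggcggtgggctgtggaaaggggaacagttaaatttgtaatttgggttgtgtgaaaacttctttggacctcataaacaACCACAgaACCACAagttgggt
Runx1 proximal start, chr16:92697280-92697579: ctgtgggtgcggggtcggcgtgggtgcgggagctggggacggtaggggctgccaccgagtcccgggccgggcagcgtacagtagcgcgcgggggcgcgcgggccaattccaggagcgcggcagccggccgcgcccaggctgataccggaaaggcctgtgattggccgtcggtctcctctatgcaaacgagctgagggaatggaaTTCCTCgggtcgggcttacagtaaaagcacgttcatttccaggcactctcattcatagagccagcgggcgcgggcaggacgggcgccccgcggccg
Zeb2 start 4.1 kb into the gene, chr2:45113230-45113529: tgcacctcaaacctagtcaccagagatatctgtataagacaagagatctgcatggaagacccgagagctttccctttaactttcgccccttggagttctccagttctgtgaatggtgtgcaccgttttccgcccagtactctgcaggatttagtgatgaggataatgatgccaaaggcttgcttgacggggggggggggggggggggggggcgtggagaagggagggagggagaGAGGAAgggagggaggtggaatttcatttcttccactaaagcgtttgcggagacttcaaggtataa
Zeb2 start about 7 kb into the gene, chr2:45110228-45110527: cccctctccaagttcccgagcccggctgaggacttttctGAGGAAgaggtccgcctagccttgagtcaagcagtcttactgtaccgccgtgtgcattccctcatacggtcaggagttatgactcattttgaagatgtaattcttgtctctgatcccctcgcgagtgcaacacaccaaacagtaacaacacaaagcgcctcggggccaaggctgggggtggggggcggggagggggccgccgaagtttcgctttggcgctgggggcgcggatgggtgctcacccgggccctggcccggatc
The distal Runx1 window held a pair of RUNX matches at bases 29 and 37, counting the start as base 1, a CACGTG E-box at base -71 and a CAGGTG E-box at base -136. The proximal Runx1 window held none of these and had 1 PU.1 match, at base -46. It was 69.0% G and C, against 45.0% in the distal window. All 4 Zeb2 windows held 1 GAGGAA, in those printed at bases -16 and -211. The first Zeb2 window printed overlaps another Zeb2 window, not printed, and both hold the same GAGGAA. The window of the first Zeb2 start, not printed, held in addition the only C/EBP match of the 9 windows. Among all 32851 RefSeq windows, 28.3% held GAGGAA, 20.2% CAGGTG, 16.8% TGTGGT, 10.8% TTGCNNAA, 7.15% CACGTG and 4.67% TGCTGAC. No binding was measured, so a match is a description of the letters alone. The Cebpa and Cebpb windows held none of the 6 motifs, and the Bhlhe41 window held 1 CACGTG and 2 CAGGTG.

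Levels were read in TPM, which are relative to transcript length and to all transcripts of a library. The authors deposited 2 quantifications of each library, the first from a transcriptome alignment and the second directly from the reads. Unless the second is named, values are from the first. Replicate 1 held 22669533 estimated counts and replicate 2 held 14939143, of which 1.14% and 0.304% lay on rows that name no annotated gene. Expressed protein-coding genes, taken as those with at least 1 TPM in each library, numbered 8572. Their TPM were higher in replicate 2 by a median of 0.38 on the log2 scale, so a difference of that size is common to many genes. As a check of the label, all 8 macrophage markers stood at 10 TPM or more in both libraries, led by Lyz2, Mpeg1 and Adgre1 on the mean of both libraries. Of 34 markers of other cell types, 13 were at 0 in both libraries and 2 reached 1 TPM in both, the B cell gene Cd22 (1.86 and 2.28 TPM) and the dendritic cell gene Zbtb46 (1.05 and 2.12 TPM). The 34 summed to 6.53 TPM in replicate 1 and 11.0 TPM in replicate 2. In the second quantification they summed to 15.9 and 40.4 TPM and 4 reached 1 TPM in both libraries, the other two being the T cell gene Cd3d, at 0 in the first quantification, with 3.01 and 13.1 TPM, and the endothelial gene Pecam1 with 3.53 and 13.4 TPM. The part of other cells in the levels below was not tested. Fewer cells of a type and less RNA per cell cannot be told apart in such bulk samples.

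All 9 genes were detected at 1 TPM or more in both libraries, over a range from 1.34 to 882 TPM. Their median was 13.2 ± 0.382 TPM (SD, n = 2), against 7.65 ± 1.46 TPM over the expressed protein-coding genes. Zeb2, Runx1, Maf, Spi1 and Cebpb lay above that median in both libraries, 5 of the 9. Among all expressed protein-coding genes 47% did so, and the share of members was thus near the background. Within each quantification the order of the 9 genes was the same in both libraries.

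**Figure D1:**
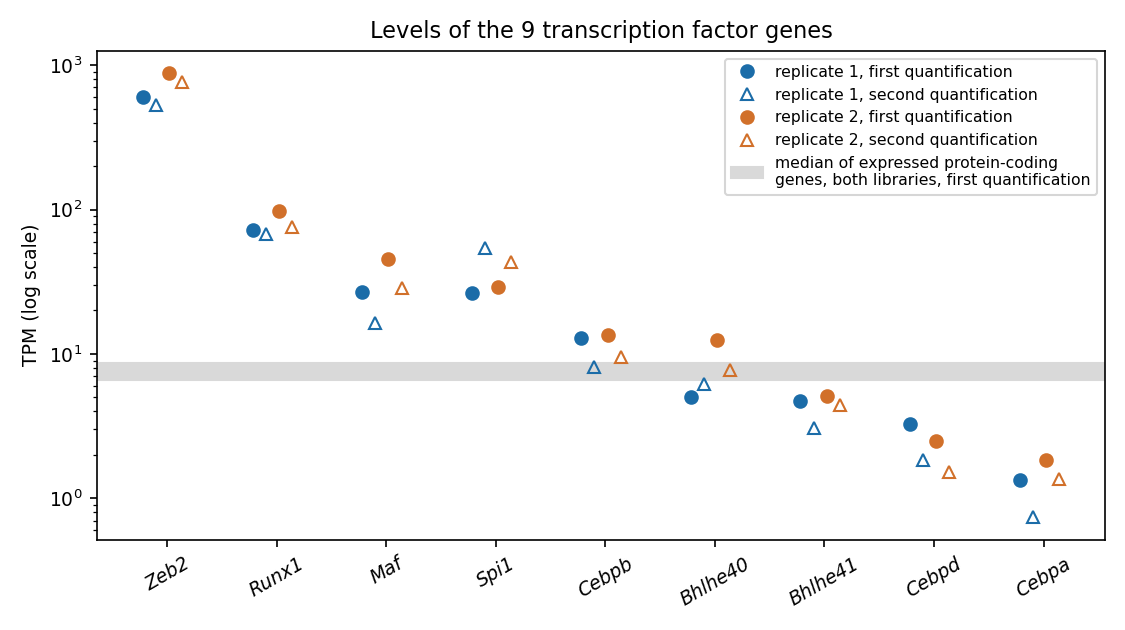
TPM of each of the 9 genes (log scale) in replicate 1 (blue) and replicate 2 (orange), by the first quantification (filled circles) and the second (open triangles), with the range of the median of expressed protein-coding genes over both libraries in grey. Zeb2 stands above all other members in every reading, from 529 to 882 TPM, and Cebpa is the lowest, from 0.738 to 1.85 TPM.

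Zeb2 encodes a zinc finger and homeodomain factor that mostly represses its targets and that maintains the tissue identity of resident macrophages in mice. It lies on the minus strand at chr2:44983632-45117395. Zeb2 stood at 598 TPM in replicate 1 and 882 TPM in replicate 2, a mean of 740.2 ± 201 TPM. That was 8.32 and 8.97 times the level of Runx1, the next member, in the same library. Among 22028 protein-coding genes Zeb2 ranked 27 and 22, and it supplied 79.7% and 80.9% of the summed TPM of the 9 genes. It rested on 61479 and 45696 estimated counts. The second quantification gave 529 and 759 TPM.

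Runx1 encodes the DNA-binding subunit of core-binding factor, which blood formation requires in the embryo. It lies on the minus strand at chr16:92601466-92826149. Runx1 stood at 71.9 and 98.4 TPM in replicates 1 and 2, ranking 441 and 390 among protein-coding genes. The second quantification gave 67.6 and 76.0 TPM, still higher than any other member but Zeb2.

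Maf encodes c-MAF, a large basic leucine zipper factor that activates Il10. It lies on the minus strand at chr8:115682942-115707794, and stood at 26.9 TPM in replicate 1 and 45.3 TPM in replicate 2. Spi1, on the plus strand at chr2:91082390-91115756, stood at 26.3 and 28.9 TPM. The ranges of Maf and Spi1 overlapped, so their order is not separated by the spread between the libraries. The second quantification placed Spi1 above Maf, with 53.9 and 43.4 TPM for Spi1 and 16.4 and 28.7 TPM for Maf. The estimate for Spi1 was thus 2.05 times that of the first quantification in replicate 1, and it was the only member estimated higher by the second quantification in both libraries.

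The 3 C/EBP genes were spread over the lower part of the range. Cebpb (chr2:167688915-167690418, plus strand) had 12.91 and 13.45 TPM in replicates 1 and 2, a mean of 13.2 ± 0.382 TPM on 577 and 300 counts. Cebpd (chr16:15887286-15891031, plus strand) had 3.27 and 2.48 TPM on 401 and 151 counts. Cebpa (chr7:35119293-35121928, plus strand) had 1.34 and 1.85 TPM on 102 and 71 counts. Cebpb was thus higher than Cebpd, and Cebpd higher than Cebpa, in both libraries and by both quantifications. In the second quantification Cebpa fell under 1 TPM in replicate 1, at 0.738 TPM, and had 1.36 TPM in replicate 2.

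Bhlhe40 and Bhlhe41 encode paralogous repressors that also dampen the circadian clock, and BHLHE40 restrains Il10 in mouse macrophages and T cells. Bhlhe40 (chr6:108660629-108666925, plus strand) had 5.0 TPM in replicate 1 and 12.5 TPM in replicate 2, the largest ratio of TPM between the libraries among the 9 genes, at 2.51. Its counts were 488 and 491. The effective length by which they were divided was 2795 in replicate 1 and 2269 in replicate 2. The second quantification gave 6.22 and 7.68 TPM. Bhlhe41 (chr6:145858243-145865558, minus strand) had 4.74 and 5.11 TPM, and its range overlapped that of Bhlhe40.

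The libraries were set against each other on counts scaled by TMM, which removes the shift shared by most genes. A member was counted as apart where the ratio passed 1.5-fold, and no test is possible with 1 library on each side. Cebpd was the only member past it, with 10.2 scaled CPM in replicate 2 and 18.2 in replicate 1. This was a log2 ratio of -0.83, or 1.78-fold lower in replicate 2. Cebpd counts were fractional, at 401.45 and 151.24, and the overlapping gene Spidr shares part of its sequence (below). The part of Spidr in this ratio was not tested. Of 10702 protein-coding genes tested, 9.97% were lower in replicate 2 by more than 1.5-fold and 4.49% were higher. With 1 of 9 lower and 0 of 9 higher, the members did not stand apart from that background. Just inside the fold lay Bhlhe40, with 32.9 in replicate 2 and 22.1 in replicate 1, a log2 ratio of 0.58. The other 7 members lay between -0.37 for Cebpb and 0.32 for Maf, and the median of the 9 was -0.06, against -0.02 over all genes tested. On the scale of the second quantification, log2(TPM + 0.1) centred on expressed protein-coding genes, Spi1 passed the fold as well, at -0.65, and Bhlhe40 was at -0.04.

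**Figure D2:**
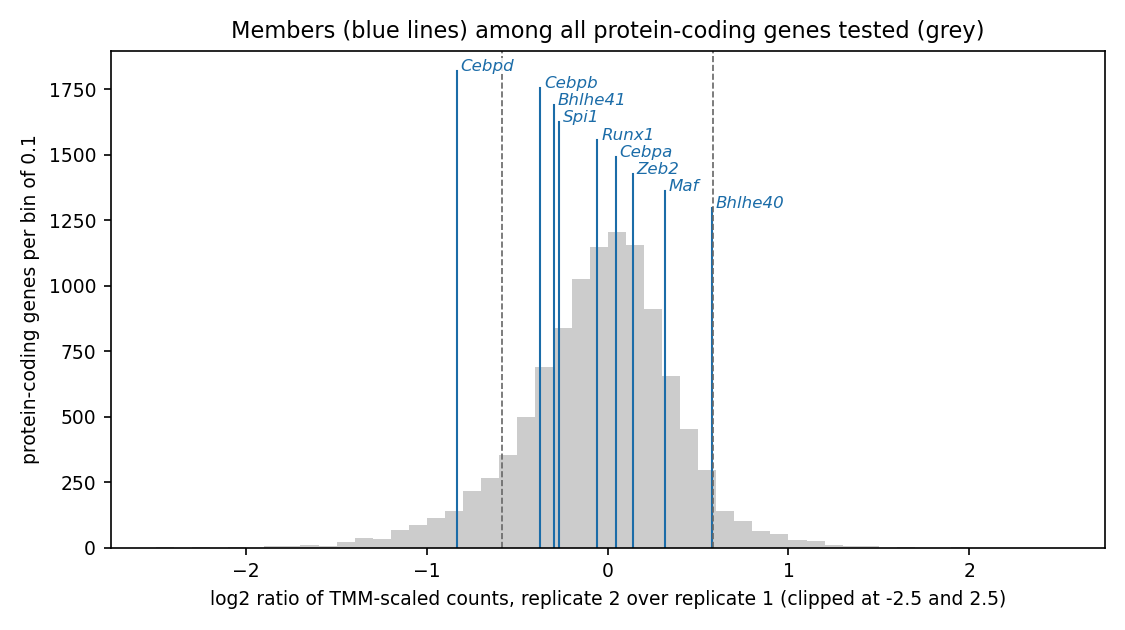
Log2 ratio of TMM-scaled counts, replicate 2 over replicate 1, for 10702 protein-coding genes (grey histogram, genes per bin of 0.1) and for the 9 members (blue lines), with dashed lines at 1.5-fold. Cebpd, at -0.83, is the only member beyond the dashed lines, and Bhlhe40, at 0.58, touches the upper one.

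At the level of transcripts, the annotation holds 54 for the 9 genes. Transcripts not annotated as protein coding carried 56.6% of the summed TPM of the members in replicate 1 and 60.3% in replicate 2, a mean of 58.4% ± 2.60 (SD, n = 2). Zeb2 set this value. Without Zeb2 the share was 29.8% and 33.2%. For single genes the background median, over 8033 expressed protein-coding genes with more than 1 transcript, was 36.2% and 34.8%. The share was 63.4% and 66.7% in Zeb2, above 82.0% and 83.7% of those genes, and 53.3% and 57.3% in Runx1. It was between 6.46% and 39.9% in Spi1, Bhlhe40 and Bhlhe41, and 0 in Cebpd, whose noncoding transcript had no counts. In Cebpa, Cebpb and Maf every annotated transcript is protein coding, so their share is 0 by annotation and no measured result. Reads of unspliced RNA and of transcripts that keep an intron cannot be told apart in these tables.

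Zeb2 RNA was assigned mostly to transcripts at the front of the gene. Where Zeb2 reads lay along the gene cannot be read from these tables. Of its 29 transcripts, 8 end within the first 20% of the gene, and these held 66.4% of Zeb2 counts in replicate 1 and 67.0% in replicate 2. A larger share on such transcripts was found in 0.772% and 0.859% of the 8033 genes, where the median was 0 in both libraries. Any share above 0 was found in 20.3% and 18.7% of them. The share can pass 0 only where the annotation holds such a transcript, so its rarity depends in part on the annotation. Zeb2-223, a noncoding transcript that ends 13.4 kb from the start of the gene, held 33.3% and 33.8% of Zeb2 TPM. Zeb2-204, a retained-intron transcript that ends at 10.9 kb, held 21.2% and 23.0%. Zeb2-211, annotated as coding and ending at 21.8 kb, held 21.3% and 19.5%. These shares differed by less than 2 percentage points between the libraries.

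The 6 Zeb2 transcripts that contain the stop codon of its longest coding sequence held 26.2% of Zeb2 counts in replicate 1 and 24.3% in replicate 2. Over 8031 expressed protein-coding genes with such a stop codon and more than 1 transcript, the median was 88.3% and 88.5%, and 4.46% and 4.94% of them had a smaller share than Zeb2. The full-length transcript Zeb2-212, which alone begins at the first start, held 11.0% and 12.7% of counts. The 12 transcripts that begin 3 to 5 kb in, around the first of the Zeb2 windows printed above, held 66.2% and 67.0%. The 13 that begin 5 to 10 kb in, around the other, held 22.8% and 20.2%. In the second quantification the 8 front transcripts held 65.2% and 66.7% of counts but 53.4% and 55.6% of TPM. There Zeb2-218, a transcript of 453 bases listed at 0 in the first quantification, held 21.7% and 20.1% of TPM. In the first quantification the 6 transcripts with the stop codon summed to 82.5 TPM in replicate 1 and 105 TPM in replicate 2. The Runx1 transcripts with the Runx1 stop codon summed to 25.7 and 28.6 TPM. In the second quantification the sums were 49.8 and 58.4 TPM for Zeb2, and 16.7 and 17.2 TPM for Runx1.

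Runx1 RNA was assigned to transcripts from both of its starts, which lie 129 kb apart. The transcripts grouped as proximal lie within the span of Runx1-201, which begins at the distal start. RNA begun at the proximal start and unspliced RNA begun at the distal start cannot be told apart in these tables. The 3 transcripts from the distal start held 41.4% of Runx1 counts in replicate 1 and 47.0% in replicate 2. The 4 grouped as proximal held 58.6% and 53.0%. Of these 4, Runx1-202 and Runx1-206 begin at the proximal start printed above, 128.8 kb into the gene. Runx1-203 and Runx1-205 begin further in, at 130.0 and 130.7 kb. By the second quantification the distal share was 41.6% and 44.5% of counts. In TPM it was 42.4% and 46.8% in the first quantification and 56.0% and 50.8% in the second. On that scale the larger part was assigned to the distal start in the second quantification alone. In each group, the transcript with the most counts spanned a small part of the gene, 4.74% for Runx1-207 and 4.60% for Runx1-206. Runx1-207, a noncoding transcript that covers the first 10.7 kb from the distal start, held 28.2% and 30.6% of Runx1 TPM. Runx1-206, a retained-intron transcript that spans 10.3 kb from the proximal start, held 25.2% and 26.7%.

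The Runx1 transcripts with the stop codon held 45.3% and 38.3% of counts in replicates 1 and 2, and 10.7% and 9.11% of the background genes had less. Among them Runx1-201, from the distal start, held 9.73% and 10.5% of TPM. Runx1-202, from the proximal start, held 11.3% and 5.29%, and Runx1-203, grouped as proximal, 14.7% and 13.3%. Runx1-202 thus had the largest difference of share between the libraries among the 7 transcripts. The remaining transcripts, Runx1-204 and Runx1-205, held 4.47% to 7.92% of TPM each. In the second quantification Runx1-204, of 336 bases, held 29.6% and 19.2%.

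**Figure D3:**
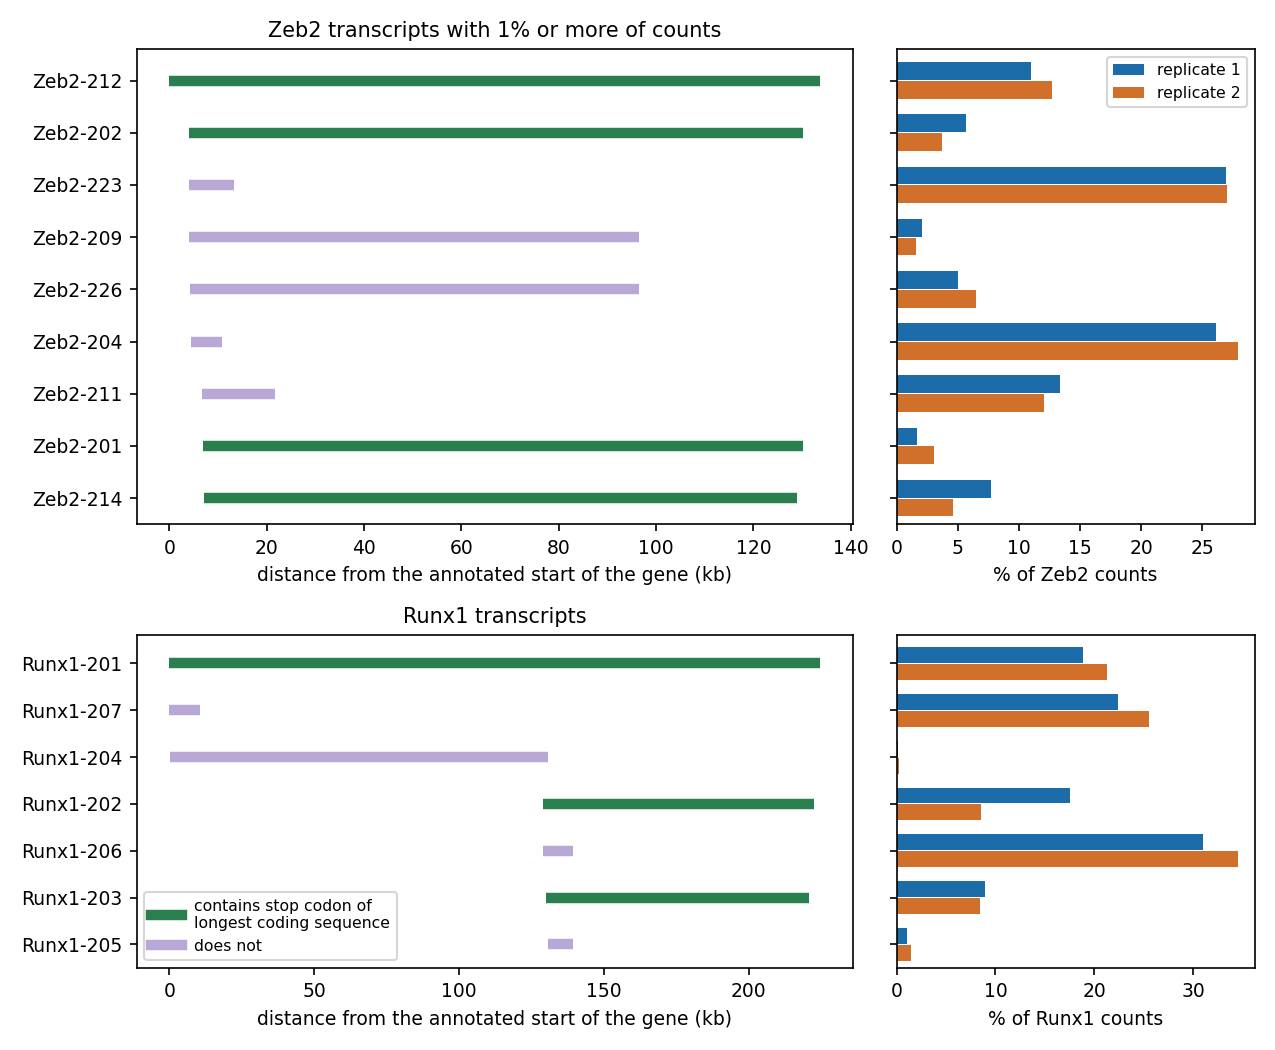
Extent of Zeb2 transcripts with 1% or more of counts (top left) and of all 7 Runx1 transcripts (bottom left), in kb from the annotated start of the gene, and the percent of the gene's counts on each (right) in replicate 1 (blue) and replicate 2 (orange). Green transcripts contain the stop codon of the longest coding sequence and violet ones do not; in Zeb2 the violet transcripts that end within 22 kb carry most of the counts.

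Maf RNA was assigned mainly to a transcript without introns. Maf-202, a coding transcript of a single exon, 6360 bases long, held 85.1% and 86.2% of Maf TPM in replicates 1 and 2, and Maf-201, spliced from 3 exons, held 14.9% and 13.8%. Each has a stop codon of its own, with coding lengths of 1110 bases in Maf-202 and 1140 in Maf-201. The share on the longest coding sequence therefore does not separate coding from noncoding transcripts here. Whether reads assigned to Maf-202 came from that isoform or from unspliced RNA cannot be told apart in these tables. Spi1-201, the coding transcript of 5 exons, held 62.8% and 63.6% of Spi1 TPM, and 90.2% and 89.6% of its counts. The noncoding Spi1-202 held 21.5% and 25.5% of TPM, Spi1-204 8.07% and 7.61%, and Spi1-203 7.61% and 3.36%. The second quantification assigned 53.2% and 42.2% of Spi1 TPM to Spi1-203, which is 402 bases long, and 19.4% and 25.9% to Spi1-201. The higher Spi1 level of that quantification thus lay on short transcripts: Spi1-201 itself was lower there, at 10.5 and 11.3 TPM, against 16.5 and 18.4 TPM in the first.

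The remaining members were simpler. Cebpb has 1 annotated transcript, and Cebpd-201 held all Cebpd counts. Cebpa-201 held 54.1% and 59.8% of Cebpa TPM and Cebpa-202 the rest. Bhlhe41-201 held 91.4% and 93.5% of Bhlhe41 TPM, and the retained-intron Bhlhe41-203 8.65% and 6.46%. Bhlhe40 was the exception. Its coding transcript Bhlhe40-201 held 80.8% of Bhlhe40 TPM in replicate 1 and 52.4% in replicate 2, while the retained-intron Bhlhe40-204 held 19.2% and 29.6%. In the first quantification the short Bhlhe40-202 and Bhlhe40-203 were at 0 in replicate 1 and held 7.74% and 10.3% in replicate 2, on 4.43 and 3.50 counts. In TPM, Bhlhe40-201 had 4.05 in replicate 1 and 6.57 in replicate 2, a smaller difference than that of the whole gene. The second quantification divided Bhlhe40 otherwise. There Bhlhe40-201 held 33.7% of TPM in replicate 1 and 40.3% in replicate 2, and Bhlhe40-204 held 17.0% and 39.6%. Bhlhe40-203 held 34.5% and 9.95%, and Bhlhe40-202 14.7% and 10.1%. The shift of Bhlhe40-201 between the libraries thus had opposite directions in the 2 quantifications.

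Genes on the opposite strand overlap 8 of the 9 members, all but Spi1, and the sources used here do not state whether strand was used in counting. Of 15 annotated genes within 5 kb of a member, 6 reached 1 TPM in either library, and all 6 overlap the member on the other strand. Tmem189, which overlaps Cebpb, had 22.4 and 23.3 TPM in replicates 1 and 2, more than Cebpb itself. Of the 31-base words in Cebpb transcripts, 19.6% also occur, on either strand, in transcripts of other genes, nearly all of them in Tmem189. Zeb2os, at the front of Zeb2, had 26.1 and 37.8 TPM, and 169 and 120 TPM in the second quantification. It shared 2.51% of the words of Zeb2. Gm15655, at the front of Maf, had 9.66 TPM in replicate 1 and 41.2 TPM in replicate 2, on 73.4 and 163 counts. Spidr, which shared 14.2% of the words of Cebpd, had 1.42 and 1.98 TPM, and Gm43909 at Bhlhe41, whose transcripts shared 17.7% of their words with other genes, had 2.09 and 1.58 TPM. Gm26626, within Runx1, had 3.90 and 5.45 TPM. Estimated counts were fractional in Cebpd and Spidr, at 401.45 and 184.55 in replicate 1 and 151.24 and 120.76 in replicate 2. They were also fractional in Bhlhe41 and Gm43909, at 898.63 and 120.37 in replicate 1, and in Maf and Gm15655. In Cebpb and Tmem189 they were whole. The part of these overlaps in the levels of Cebpb, Cebpd, Bhlhe41 and Maf was not tested. Spi1 shared none of its words with another gene.

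In the first quantification, each paralogue was lower in both libraries than the highest member of its own family. Of 13, 7 had at least 1 TPM in each library, and none reached 10 TPM in both. In the second quantification Zeb1 had 14.5 and 20.0 TPM, and Cebpz and Cebpg, at 14.1 and 10.6 TPM, lay above Cebpb, at 9.46 TPM, in replicate 2. Zeb1, the paralogue of Zeb2, had 9.19 and 16.9 TPM in replicates 1 and 2. Among other C/EBP genes, Cebpg had 7.99 and 10.4 TPM, Ddit3, the stress-induced member, 5.10 and 7.62 TPM, and Cebpz, which shares the name but is no leucine zipper factor, 2.95 and 4.59 TPM. Cebpg was thus higher than Cebpa and Cebpd in both libraries. Spic, the PU.1 relative of iron-recycling macrophages, had 2.49 and 3.61 TPM, and Runx2 2.36 and 3.55 TPM. Runx3 stood at 0.09 and 0.89 TPM on 11 and 7 counts, Spib at 0.02 and 0.11 TPM, and the granulocyte gene Cebpe at 0.06 TPM in both. Nrl, Bhlhe22 and Bhlhe23, which act in retina and other neural tissue, were at 0 in both libraries. In the second quantification Nrl had 0.294 and 0.585 TPM, Spib 0.455 and 0.747 TPM, and Runx3 0.616 and 1.26 TPM. Bhlhe22 and Bhlhe23 were at 0 there too, and Cebpe had 0.0448 and 0.0435 TPM.

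Of 22 partners and cofactors, 19 had at least 1 TPM in each library and 11 had at least 10 TPM. Their median was 10.3 TPM in replicate 1 and 12.1 TPM in replicate 2. The highest on the mean of both libraries were Junb, an AP-1 subunit, with 108 and 71.9 TPM, Irf8, the partner of PU.1 on composite sites, with 93.4 and 66.1 TPM, and the corepressor gene Ncor1 with 27.8 and 44.7 TPM. Of the 22, 4 were lower in replicate 2 by more than 1.5-fold by TMM-scaled counts and 1 was higher, beside 9.97% and 4.49% of all genes. Of 19 myeloid genes known as targets, 17 had at least 1 TPM in each library, and the median was 36.6 TPM in replicate 1 and 63.5 TPM in replicate 2. The highest on the mean of both libraries were the lysozyme gene Lyz2 with 916 and 1103 TPM, the endotoxin co-receptor gene Cd14 with 215 and 323 TPM, and Adgre1, which encodes F4/80, with 194 and 249.3 TPM. Lyz2 and Adgre1 are also among the macrophage markers used above, and these lists share further genes, so they are not independent. Il10, the cytokine gene activated by MAF and restrained by BHLHE40, had 36.6 and 71.6 TPM. The targets below 1 TPM in a library were the clock genes Dbp (0.96 and 1.26 TPM) and Per1 (0.78 and 0.81 TPM), which BHLHE40 and BHLHE41 are known to repress. Whether the levels of any targets depend on the members was not tested.

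Transcription factors of other blood lineages were mostly near 0. Of 16, 2 had at least 1 TPM in each library, and the medians were 0.03 TPM in each. They were Batf3, a factor of cross-presenting dendritic cells, with 3.81 and 1.96 TPM on 59 and 15 counts, and Tal1, a factor of stem and erythroid cells, with 2.48 and 2.81 TPM on 333 and 194 counts. In the second quantification 3 of the 16 had at least 1 TPM in each library, the third being Ebf1 with 1.31 and 1.34 TPM. Cebpa, the lowest of the 9 members, had lower TPM than both Batf3 and Tal1 in each library and quantification. The 3 other-lineage genes listed at 0 TPM in both libraries were Klf1, Bcl11b and Eomes, of which Eomes had 0.157 and 0.780 TPM in the second quantification. Bcl11b had 1 count in replicate 1, and its 0 TPM there is a rounded value. Elsewhere a count of 0 allows up to 3 counts, or 0.134 and 0.201 CPM (the count divided by the library total and scaled), and covers counting error only.

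**Figure D4:**
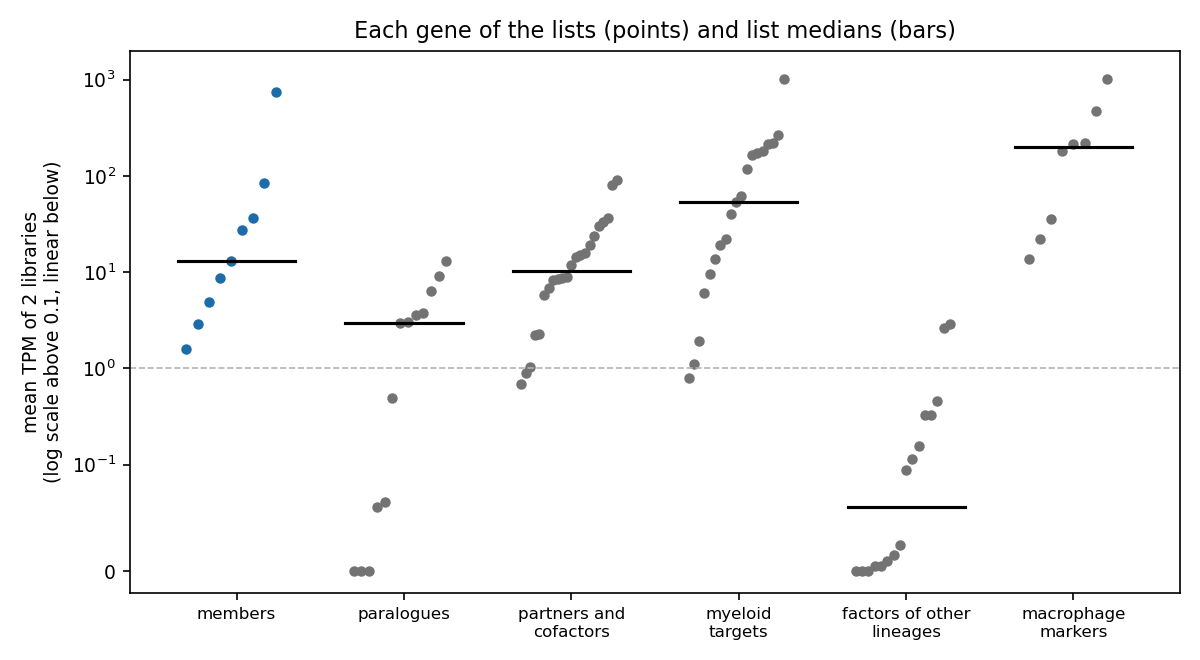
Mean TPM of both libraries for each gene (points) of 6 lists, with list medians as bars and 1 TPM as a dashed line; the axis is logarithmic above 0.1 TPM and linear below. All 9 members lie above 1 TPM, and 2 of the 16 factors of other lineages do. Some genes appear both as targets and as macrophage markers.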

How the data were processed

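The files hold 2 quantifications of each library, as gene and transcript tables for the first and as a transcript table for the second. Per the notes deposited with the files, both used mm10 and GENCODE M21, the first after alignment to the transcriptome and the second directly from the reads. Not given in the sources used here are the aligner, the quantifiers and the strand setting. Estimated counts (expected counts) are as the authors deposited them, unnormalized and often fractional. TPM as deposited relate to all features of a library, and short features, under 200 in effective length, took up 73.9% of TPM in replicate 1 and 57.0% in replicate 2. The FPKM values deposited by the authors, scaled to length and library size, served as an alternative.

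From these, TPM were ranked and summed with pandas 2.3.3, with gene models of the GENCODE M21 annotation. Counts were rounded, filtered with filterByExpr, scaled by TMM in edgeR 4.0.16 (R 4.3.3) and compared as log2 ratios with a prior count of 2. This step was tested on simulated data. DESeq2 1.42.0 size factors were an alternative. Shares of transcripts used transcript counts and TPM, and words of 31 bases were compared on both strands. Rows that name no gene were left out. No p-values were computed, since the labels give 1 group. Depth limits the low genes: Cebpa rested on 102 and 71 counts.

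The text names all 9 members, all paralogues but 1, which is not reported here, the 3 highest genes of the lists of partners, targets and macrophage markers, genes of other lineages at 1 TPM or more in both libraries, neighbours within 5 kb at 1 TPM or more, and transcripts with 10% or more of a gene's TPM. Cd3d, Pecam1, Klf1, Bcl11b, Eomes, Ebf1, Dbp, Per1, Il10 and Zeb2-212 were added after their values were seen. The members and lists were chosen with earlier results of these data known. The motifs, the word sharing and the shares by start, stop codon and first 20% of a gene were chosen after seeing the data.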

Additional observations from a re-analysis of the deposited data

How the results depend on the processing

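The median TPM of the 9 genes was 13.2 in the first quantification. It was 8.81 TPM in the second quantification, 17.7 in FPKM and 67.1 after TPM were rescaled to protein-coding genes outside the mitochondrial genome, the last 2 being changes of scale, and 12.91 to 13.45 with either library left out. The count of members above the median of expressed protein-coding genes was 5, and between 4 and 7 under its 6 alternatives. The count past 1.5-fold between the libraries was 1 with DESeq2 size factors, without the filter and with a prior count of 0.5, each time Cebpd, and 2 in the second quantification, Cebpd and Spi1. The share of TPM on transcripts not annotated as protein coding was 58.4%, 61.3% in the second quantification, 56.6% to 60.3% with either library left out, and 31.5% without Zeb2, an alternative chosen after seeing the data. In the second quantification the TPM of 6 of the 9 genes moved by more than the SD between the libraries. The share of Zeb2 counts on the 8 front transcripts was 66.7%, 66.0% in the second quantification and 76.3% in TPM of the first. The share with the stop codon was 25.2%, 22.7% and 12.9%. In TPM of the second quantification the front share was lower, at 53.4% in replicate 1 and 55.6% in replicate 2. The cause of the differences between the quantifications was not tested.

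No paired analysis was possible because the labels give a single group. Each statement rests on 2 libraries of that group, and replicate 2 held fewer counts, with Cebpa at 71 and Cebpd at 151. Counts on transcripts that share exons are estimates of the quantifiers.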
